A study of Mus musculus with 8 samples.

Results

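Levels of 9 transcription factors that mark the formative and primed epiblast were compared in mouse embryonic stem (ES) cells of 2 clones, with and without doxycycline. The factors are Pou3f1, Otx2, Foxd3, Tcf15, Gbx2, Zic2, Zic5, Sox3 and Sall2. They were taken by gene symbol from the authors' deposited table, where each of the 9 symbols matched 1 of 23284 gene entries. Clone 6 carries a Ctcfl transgene designed to be inducible with doxycycline and clone 7 lacks it, and the strain of all samples is given as mixed. The 4 groups were clone 6 with 2 µg/ml doxycycline, clone 6 without it, clone 7 with 2 µg/ml doxycycline and clone 7 without it. All cells were grown on embryonic fibroblast feeders and then replated off them for 48 h, so every group had the same passage off feeders. As the transgene is represented by 1 clone and its absence by another, effects of the transgene without inducer cannot be told apart from other differences between the clones. Each group was made of 2 libraries, 1 from each of 2 runs of the experiment, that the labels call biological replicates.

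ES cells in the naive state resemble the early epiblast of the blastocyst. As they leave that state they pass through a formative stage and reach the primed state of the later epiblast, from which the germ layers arise. Otx2, a homeodomain factor, and Pou3f1, a POU-domain factor also called Oct6, are switched on in this transition. Foxd3 is a forkhead factor needed to maintain the epiblast, and Tcf15 is a basic helix-loop-helix factor that primes ES cells for differentiation. Zic2 and Zic5 are zinc finger factors of the early ectoderm, Sox3 is a SoxB1 factor related to Sox2, and Sall2 is a zinc finger factor of the Spalt family. Gbx2 is a homeodomain factor of the epiblast and the anterior hindbrain, and in mouse ES cells it also acts below Stat3 to sustain self-renewal.

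Levels are the authors' FPKM values (fragments per kilobase of transcript, scaled to mapped fragments), with 1 value per gene and group and hence no SD. Library depth is unknown. In bulk RNA, fewer cells of a type and less RNA per cell cannot be told apart. The core ES cell factor Pou5f1 was at 1011 FPKM and 1116 FPKM in clone 6 with and without doxycycline and at 1108 FPKM and 1080 FPKM in clone 7 with and without it, so the ES cell label was matched by this marker in all groups. A gene was called where the authors' deposited table reports a test and a q-value under 0.05. Of the 6 ES cell markers examined, Pou5f1 among them, 3 were not called between the clones in either medium. In both media 2 were called higher in clone 6 (Nanog and Zfp42) and 1 lower (Sox2). The lowest value of the 6 was 18.9 FPKM, for Zfp42 in clone 7 without doxycycline. Ctcfl itself was at 0.995 FPKM and 0.403 FPKM in clone 6 with and without doxycycline against 0.498 FPKM and 0.513 FPKM in clone 7, so its level in clone 6 without doxycycline lay below both clone 7 values. Its difference with doxycycline in clone 6, 2.47-fold, was not called (p = 0.0062 and q = 0.296 in the authors' deposited table), so induction of the transgene was not established by this test. Intervals are 95% normal intervals on the log2 scale, from the standard error implied by the deposited test statistic.

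All 9 factors were expressed in every group. The lowest value was 6.04 FPKM, for Gbx2 in clone 6 without doxycycline, and the highest was 199 FPKM, for Tcf15 in clone 7 with doxycycline. Their FPKM sum was 283 in clone 6 with doxycycline and 321 in clone 6 without it, against 554 and 541 in clone 7 with and without the drug. Tcf15 made up 21.4% and 15.9% of that sum in clone 6 with and without doxycycline and 36.0% and 34.7% in clone 7. Without Tcf15 the sums were 223 and 270 FPKM in clone 6 with and without doxycycline and 354.5 and 353.5 FPKM in clone 7. Thus both clone 6 sums stayed below both clone 7 sums when the most abundant factor was left out.

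**Figure D1:**
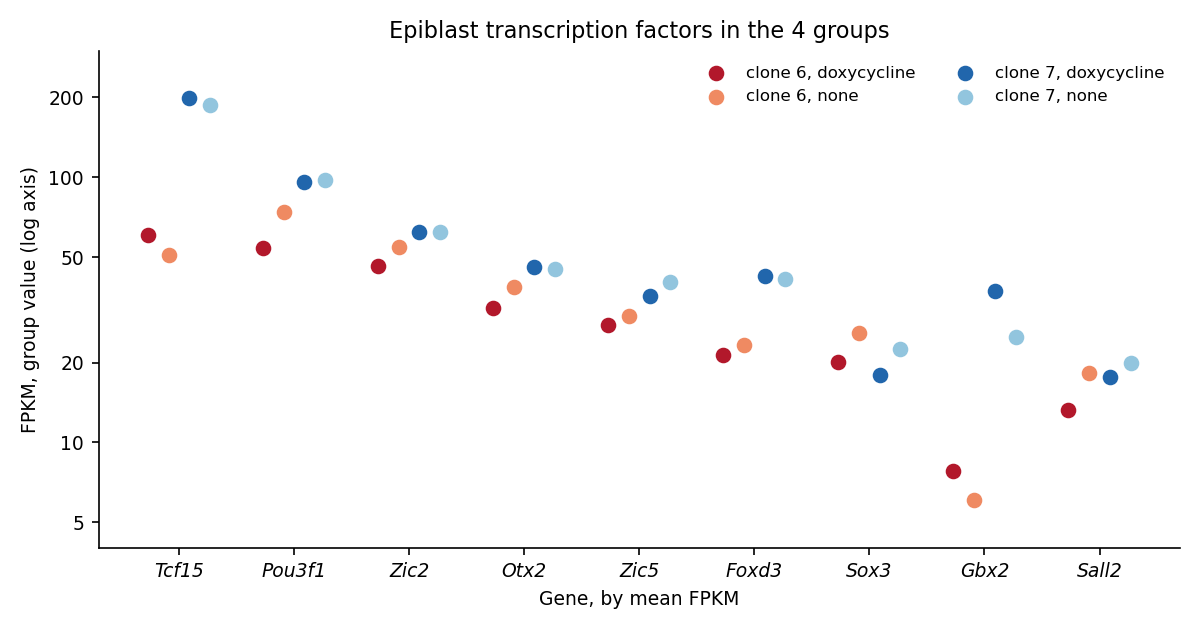
The authors' group FPKM (log axis) of the 9 factors, ordered by mean level, with 1 point per gene and group and no error bar because no value per library was used. Both clone 6 points lie below both clone 7 points for Tcf15, Pou3f1, Zic2, Otx2, Zic5, Foxd3 and Gbx2, and the widest gap is that of Gbx2, at 7.77 and 6.04 FPKM in clone 6 against 37.2 and 25.0 FPKM in clone 7.

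The first comparison set the clones against each other. Tcf15, Gbx2 and Foxd3 were lower in clone 6 in both media, and Pou3f1 was called lower with doxycycline and not called without it. With doxycycline 4 of the 9 factors were called lower and 0 higher in clone 6, where lower calls made up 0.666% and calls in either direction 1.52% of 13064 tested genes. Without doxycycline 3 of 9 were called lower and 0 higher, against 0.575% lower and 1.37% in either direction of 13047 tested genes. Of the 9 factors 8 had a ratio below 1 in each medium, against 53.7% and 50.2% of all tested genes with and without doxycycline. The median log2 ratio of the factors was -0.51 with doxycycline and -0.40 without it, and that of all tested genes was -0.02 and -0.0010. The comparisons in the 2 media share no library.

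Tcf15 was at 60.5 FPKM in clone 6 against 199 FPKM in clone 7 with doxycycline. Without doxycycline it was at 50.9 FPKM in clone 6 against 188 FPKM in clone 7. The clones stood 3.29-fold and 3.69-fold apart with and without doxycycline, with log2 ratios of -1.72 (interval -1.97 to -1.47) and -1.88 (interval -2.12 to -1.65). Both tests are at the smallest values of the authors' deposited table (p = 5e-05, q = 0.00812). In clone 7 Tcf15 had the highest level of the 9 factors in both media, whereas in clone 6 without doxycycline it came after Pou3f1 and Zic2. For Tcf15 the standard errors from the deposited p-values were wider than those from the test statistic, as they also were for Gbx2 and Foxd3. With the standard error from p the Tcf15 intervals ran from -2.55 to -0.89 with doxycycline and from -2.79 to -0.97 without it. Since p stands at its smallest value, these are the widest that p allows.

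Gbx2 had the largest ratio between the clones among the 9 factors. Its level was 7.77 FPKM in clone 6 against 37.2 FPKM in clone 7 with doxycycline, and 6.04 FPKM in clone 6 against 25.0 FPKM in clone 7 without it. The clones stood 4.79-fold apart with doxycycline (log2 ratio -2.26, interval -2.85 to -1.67) and 4.14-fold apart without it (log2 ratio -2.05, interval -2.64 to -1.46). Both tests are at p = 5e-05 and q = 0.00812 in the authors' deposited table. The standard error from p, the widest that p allows, gave wider intervals. These ran from -3.35 to -1.17 with doxycycline and from -3.04 to -1.06 without it. Among the genes called lower in clone 6, ordered by ratio, Gbx2 took rank 7 of 87 with doxycycline and rank 5 of 75 without it, and Tcf15 rank 19 and rank 11. An antisense transcript, D130058E05Rik (chromosome 1, 89930234 to 89933290, plus strand), overlaps Gbx2, which lies on the minus strand. It is not among the gene entries used here, and since no strand setting is given in the sources used here, its reads cannot be told apart from those of Gbx2.

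Foxd3 stood at 21.4 FPKM in clone 6 against 42.4 FPKM in clone 7 with doxycycline, and at 23.2 FPKM against 41.4 FPKM without it. The clones were 1.99-fold and 1.78-fold apart, with log2 ratios of -0.99 (interval -1.40 to -0.57) and -0.83 (interval -1.22 to -0.44), both at q = 0.00812 in the authors' deposited table. Pou3f1 was at 54.0 FPKM in clone 6 against 95.7 FPKM in clone 7 with doxycycline, a 1.77-fold gap (log2 ratio -0.82, interval -1.32 to -0.33, q = 0.00812 in the authors' deposited table). Without doxycycline Pou3f1 was at 73.6 FPKM in clone 6 against 97.3 FPKM in clone 7, which was not called (log2 ratio -0.40, interval -0.86 to 0.06, p = 0.0307 and q = 0.753 in the authors' deposited table). Pou3f1 had the second highest level of the 9 factors in clone 7. Whether its gap differed between the media was tested below together with the responses to doxycycline, since both are the same difference.

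In the genome (build mm10, positions from the authors' deposited table) the factors lie at 8 separate sites on 5 chromosomes. Tcf15 is on chromosome 2 (152143609 to 152149096, plus strand), Gbx2 on chromosome 1 (89927962 to 89931176, minus strand), and Foxd3 (99656299 to 99658671, plus strand) and Pou3f1 (124657646 to 124660655, plus strand) on chromosome 4. Zic5 (122459160 to 122465658, minus strand) and Zic2 (122475384 to 122480328, plus strand) are divergent neighbours on chromosome 14, with 9725 bases between them. Otx2 (48658184 to 48662872) and Sall2 (52311177 to 52328670) are also on chromosome 14, both on the minus strand, and Sox3 is on chromosome X (60891366 to 60893430, minus strand). All 9 are protein coding genes in GENCODE M21, and Foxd3, Pou3f1 and Sox3 consist of 1 exon there. The miRNA gene Gm23366 (99657742 to 99657830) lies within Foxd3. The neighbours Zic2 and Zic5 both had their lower values in clone 6, with log2 ratios of -0.43 and -0.36 with doxycycline and -0.18 and -0.43 without it, none of them called.

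The bases before the start of Gbx2 and Foxd3 are shown because these are factors called lower in clone 6 in both media, and 5 of the 9 factors had an entry in the RefSeq promoter table used here (GRCm38.p6; Gbx2, Foxd3, Otx2, Sall2 and Zic5). Each is the 250 bases before the annotated start, 5′ to 3′ on the strand of the gene. Capitals mark E-boxes, the letters CANNTG that basic helix-loop-helix factors such as Tcf15 can bind.
Gbx2 (chr1:89931177-89931426, minus strand): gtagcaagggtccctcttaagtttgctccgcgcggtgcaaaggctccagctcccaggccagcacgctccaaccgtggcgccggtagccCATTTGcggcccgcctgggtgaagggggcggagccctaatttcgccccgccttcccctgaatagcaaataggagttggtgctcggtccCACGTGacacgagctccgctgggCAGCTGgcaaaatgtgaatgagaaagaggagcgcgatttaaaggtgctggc
Foxd3 (chr4:99656049-99656298, plus strand): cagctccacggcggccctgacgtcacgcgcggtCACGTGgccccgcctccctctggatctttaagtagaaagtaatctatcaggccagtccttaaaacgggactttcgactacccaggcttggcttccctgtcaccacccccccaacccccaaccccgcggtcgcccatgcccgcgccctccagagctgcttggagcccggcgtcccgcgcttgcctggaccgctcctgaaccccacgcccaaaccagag
The Gbx2 window holds 3 E-boxes and the Foxd3 window 1, and 66.2% of 32851 promoter windows of the same length hold at least 1. The E-box form CACGTG, singled out after the sequences were seen, is in both windows and in 6.02% of all of them. The CpG pair occurs 18 times in the Gbx2 window and 21 times in the Foxd3 window. Over all windows the median is 6 and the 90th percentile is 25. GC content was 61.6% and 65.6%, against a median of 52.4% and a 90th percentile of 69.2%. Neither window has the octamer ATGCAAAT of POU factors on either strand, which 1.60% of all windows have. A match describes letters only, and a missing match says nothing of whether a factor binds there.

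The genes called lower in clone 6 overlapped between the media. Of 87 genes called lower with doxycycline and 75 without it, 60 were shared, which is 69.0% of the first list and 80.0% of the second, and these include Tcf15, Gbx2 and Foxd3. The diagonal comparisons of the authors' deposited table gave the same calls. Clone 6 with doxycycline against clone 7 without it had 4 factors lower (Tcf15, Gbx2, Foxd3 and Pou3f1; background 0.551% of genes lower), and clone 6 without doxycycline against clone 7 with it had 3 lower (Tcf15, Gbx2 and Foxd3; background 0.713%). These comparisons share groups with the ones above. Hence for Tcf15, Gbx2 and Foxd3 each clone 6 group was called below each clone 7 group, and for Pou3f1 only clone 6 with doxycycline was, while in clone 6 without doxycycline it was called different from none of the other 3 groups.

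The remaining 5 factors were called in none of the 6 pairwise comparisons. Otx2 was at 32.2 FPKM in clone 6 against 45.9 FPKM in clone 7 with doxycycline, and at 38.6 FPKM against 45.2 FPKM without it. Zic2 was at 46.2 FPKM against 62.0 FPKM with doxycycline and at 54.7 FPKM against 62.0 FPKM without it. These 2 factors had the same order of groups, with the clone 6 values below the clone 7 values and the lowest value in clone 6 with doxycycline. The log2 ratio of Otx2 was -0.51 with doxycycline (interval -1.18 to 0.15) and -0.23 without it (interval -0.83 to 0.37), and that of Zic2 was -0.43 (interval -1.02 to 0.16) and -0.18 (interval -0.73 to 0.37). With doxycycline the authors' deposited table gives an unadjusted p of 0.0254 for Otx2 and 0.0405 for Zic2. Counting the called ones, 6 of the 9 factors were under 0.05 without adjustment in that medium, against 7.9% of all tested genes, and 4 of 9 in the medium without doxycycline, against 6.59%.

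Zic5 was at 27.8 FPKM in clone 6 against 35.8 FPKM in clone 7 with doxycycline and at 29.9 FPKM against 40.2 FPKM without it. Its log2 ratio was -0.43 without doxycycline, with an interval of -0.81 to -0.05 but a p of 0.0532 and a q of 0.989 in the authors' deposited table. Sall2 was at 13.2 FPKM against 17.6 FPKM with doxycycline and at 18.2 FPKM against 19.9 FPKM without it. Sox3 was the exception in direction, with 20.1 FPKM in clone 6 against 17.9 FPKM in clone 7 with doxycycline and 25.8 FPKM against 22.6 FPKM without it. Its log2 ratios were 0.17 (interval -0.26 to 0.60) and 0.20 (interval -0.18 to 0.57). The groups of Sox3 and Sall2 therefore interleave between the clones, whereas those of Zic5 do not. Over the factors not called, p in the authors' deposited table ran from 0.0254 to 0.544 with doxycycline and from 0.0307 to 0.515 without it.

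**Figure D2:**
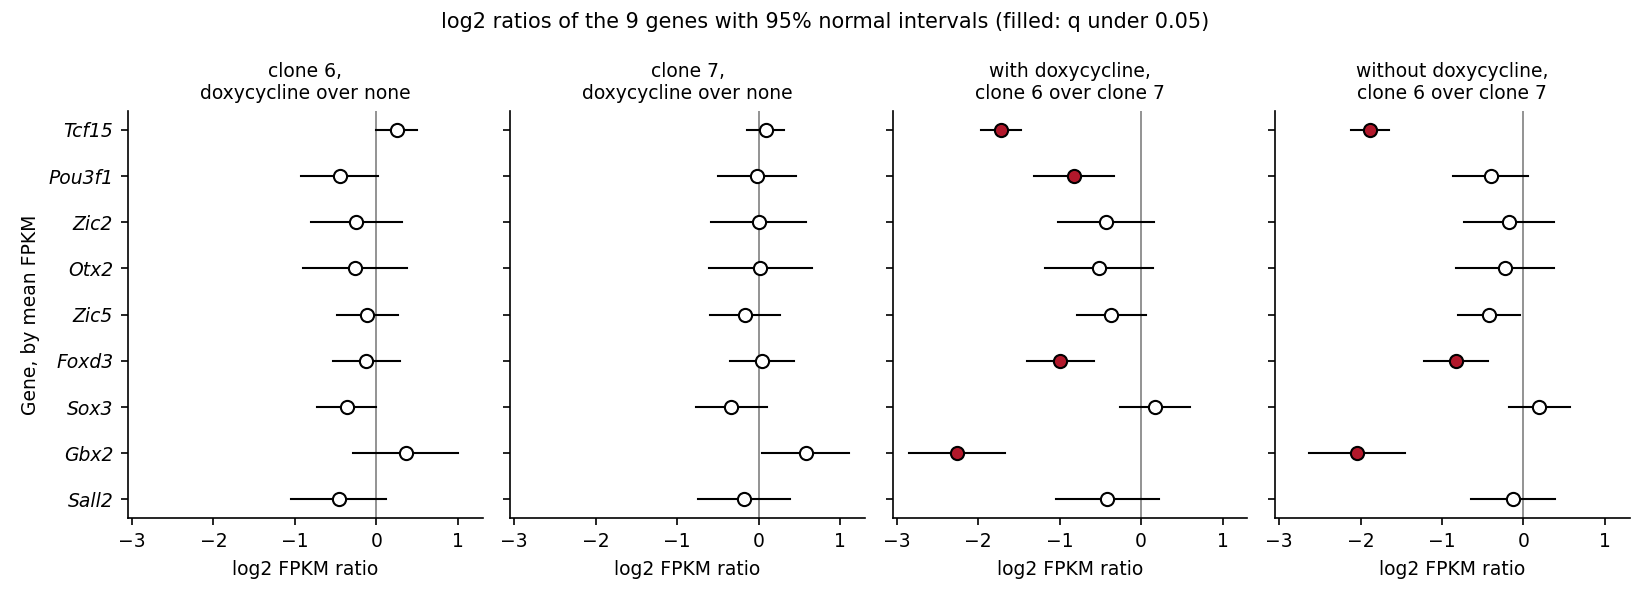
The log2 FPKM ratios of the 9 factors (points, filled where q was under 0.05) in 4 comparisons, with 95% normal intervals (lines) from the deposited test statistic. Filled points stand only in the 2 panels of clone 6 over clone 7, for Tcf15, Pou3f1, Foxd3 and Gbx2 with doxycycline and for Tcf15, Foxd3 and Gbx2 without it.

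The second comparison asked whether doxycycline moves these factors in the clone with the transgene, whose own difference was not called. In clone 6 none of the 9 factors was called in the authors' deposited table, whose Cuffdiff-type test called 0.108% of 13003 tested genes. Of the 9 factors 7 had a lower value with doxycycline, against 49.9% of all tested genes, and the median log2 ratio was -0.24, against 0.0003 for all tested genes. Pou3f1 had 54.0 FPKM with doxycycline against 73.6 FPKM without it (log2 ratio -0.45, interval -0.92 to 0.03). Sall2 had 13.2 FPKM with doxycycline against 18.2 FPKM without it (log2 ratio -0.46, interval -1.05 to 0.12). With the standard error from p the intervals were narrower and lay below 0, from -0.82 to -0.08 for Pou3f1 and from -0.87 to -0.05 for Sall2. The authors' deposited table gives p = 0.0183 and q = 0.569 for Pou3f1 and p = 0.0267 and q = 0.702 for Sall2. These were the 2 factors under 0.05 without adjustment, against 1.08% of all tested genes.

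Sox3 was at 20.1 FPKM with doxycycline against 25.8 FPKM without it in clone 6 (log2 ratio -0.36, interval -0.72 to 0.0028). Gbx2 and Tcf15, the factors furthest below clone 7, had values on the other side. Gbx2 was at 7.77 FPKM with doxycycline against 6.04 FPKM without it (log2 ratio 0.36, interval -0.28 to 1.01), and Tcf15 was at 60.5 FPKM against 50.9 FPKM (log2 ratio 0.25, interval -0.0030 to 0.50). For Tcf15 the standard error from p, 0.3605 in the authors' deposited table, gave an interval from -0.28 to 0.78. The log2 ratios of the other 4 factors lay between -0.26 for Otx2 and -0.11 for Zic5.

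In clone 7, which has no transgene, none of the 9 factors was called either, nor was any of the 12908 tested genes (0% called by the test of the authors' deposited table, 0.108% at an unadjusted p under 0.05). Gbx2 was at 37.2 FPKM with doxycycline against 25.0 FPKM without it, a 1.49-fold difference (log2 ratio 0.58, interval 0.04 to 1.11) that had a p of 0.023 and a q of 0.647 in the authors' deposited table. It was the 1 factor with an unadjusted p under 0.05 in this clone. Pou3f1 was at 95.7 FPKM against 97.3 FPKM, Otx2 at 45.9 FPKM against 45.2 FPKM and Zic2 at 62.0 FPKM in both media. For these 3 factors the log2 ratios lay between -0.02 and 0.02, but the intervals reached at least 0.45 to each side. Sox3 was at 17.9 FPKM with doxycycline against 22.6 FPKM without it (log2 ratio -0.33, interval -0.77 to 0.10), so its value with doxycycline was the lower one in both clones. Over the 9 factors 4 had the lower value with doxycycline, against 42.3% of all tested genes, and the median log2 ratio was 0.0015, against 0.02.

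Whether the response differs between the clones was tested directly, with a two-sided normal test on the deposited statistics over 12634 genes. None of the 9 factors was called at an adjusted p under 0.05, where 0.142% of all genes were, and none had an unadjusted p under 0.05, as 0.459% of all genes did. Those 0.142% were 18 genes, and with standard errors from p 0 genes were called. Pou3f1 had the largest difference, with a log2 response of -0.45 in clone 6 and -0.02 in clone 7, a difference of -0.42 (SE 0.34, interval -1.10 to 0.25, normal test on the authors' deposited table, p = 0.219). The same value is the change of its gap between the clones from one medium to the other, so the gap was not shown to be wider with doxycycline. For the other 8 factors the differences ran from -0.28 for Sall2 and Otx2 to 0.16 for Tcf15, and 7 of the 9 were below 0, against 53.9% of all genes. These comparisons share the clone 6 and clone 7 groups with the comparison of the clones, so their values are not independent of it.

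The clone difference did not extend to all genes of the epiblast stages. In a list of 21 other formative and primed genes, all tested, Dnmt3l was called lower in clone 6 in both media, Nodal higher in both and Cldn6 higher with doxycycline. With and without doxycycline 18 and 19 of the 21 were not called, where calls made up 1.52% and 1.37% of all tested genes. Under 0.05 without adjustment in the Cuffdiff-type test were 6 of the 21 in each medium, against 7.9% and 6.59% of all tested genes. Ratios were below 1 for 16 of the 21 with doxycycline and 14 without it, against 53.7% and 50.2%. Dnmt3l, a cofactor of de novo DNA methylation, was at 130 FPKM in clone 6 against 230 FPKM in clone 7 with doxycycline and at 120 FPKM against 206 FPKM without it. Nodal, the ligand that sustains the primed epiblast, was at 61.8 FPKM against 25.8 FPKM with doxycycline and at 56.7 FPKM against 24.0 FPKM without it. Cldn6, a tight junction claudin, was at 165 FPKM in clone 6 against 95.2 FPKM in clone 7 with doxycycline and at 150.3 FPKM against 98.1 FPKM without it, which are ratios of 1.73 and 1.53 (q = 0.0295 and 0.107 in the authors' deposited table). Its gap was not shown to differ between the media (difference of log2 ratios 0.18, interval -0.52 to 0.87, normal test on the authors' deposited table, p = 0.620). With p adjusted within each comparison alone, Dnmt3a and Foxp1 were also called lower with doxycycline and Fgf5 higher without it. The signal Fgf5, a common marker of the formative and primed states, was at 15.3 FPKM in clone 6 against 12.5 FPKM in clone 7 with doxycycline and at 22.6 FPKM against 12.9 FPKM without it, with q-values of 0.9996 and 0.064 in the authors' deposited table. The median log2 ratio of the list was -0.22 with doxycycline and -0.05 without it, against -0.51 and -0.40 for the 9 factors.

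Naive pluripotency factors also differed in both directions between the clones. Of 11 such factors 2 were called higher and 1 lower in clone 6 in each medium, where 1.52% and 1.37% of all tested genes were called with and without doxycycline. Under 0.05 without adjustment in the Cuffdiff-type test were 8 of the 11 in each medium, against 7.9% and 6.59% of all tested genes. Ratios were below 1 for 8 of the 11 with doxycycline and 7 without it, against 53.7% and 50.2%. Zfp42, also called Rex1, was at 88.3 FPKM in clone 6 against 20.1 FPKM in clone 7 with doxycycline and at 58.8 FPKM against 18.9 FPKM without it. Nanog was at 128 FPKM against 68.5 FPKM with doxycycline and at 97.6 FPKM against 57.9 FPKM without it. The orphan receptor Nr0b1 was at 15.1 FPKM against 41.8 FPKM with doxycycline and at 10.1 FPKM against 28.0 FPKM without it. The median log2 ratio of the naive list was -0.50 with doxycycline and -0.62 without it, so it lay below 0 as that of the 9 epiblast factors did. With doxycycline against none, all 11 naive factors had ratios above 1 in clone 6 (50.1% of all tested genes) and in clone 7 (57.7%), with median log2 ratios of 0.41 and 0.36. None of the 11 was called in the Cuffdiff-type test. Under 0.05 without adjustment were 4 in clone 6 and 2 in clone 7, against 1.08% and 0.108% of all tested genes. For the other formative and primed genes doxycycline gave 0 calls in either clone in that test. Under 0.05 without adjustment were 3 of the 21 in clone 6 and 0 in clone 7, against the same shares. The median log2 ratios of these 21 genes were -0.05 and 0.05.

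**Figure D3:**
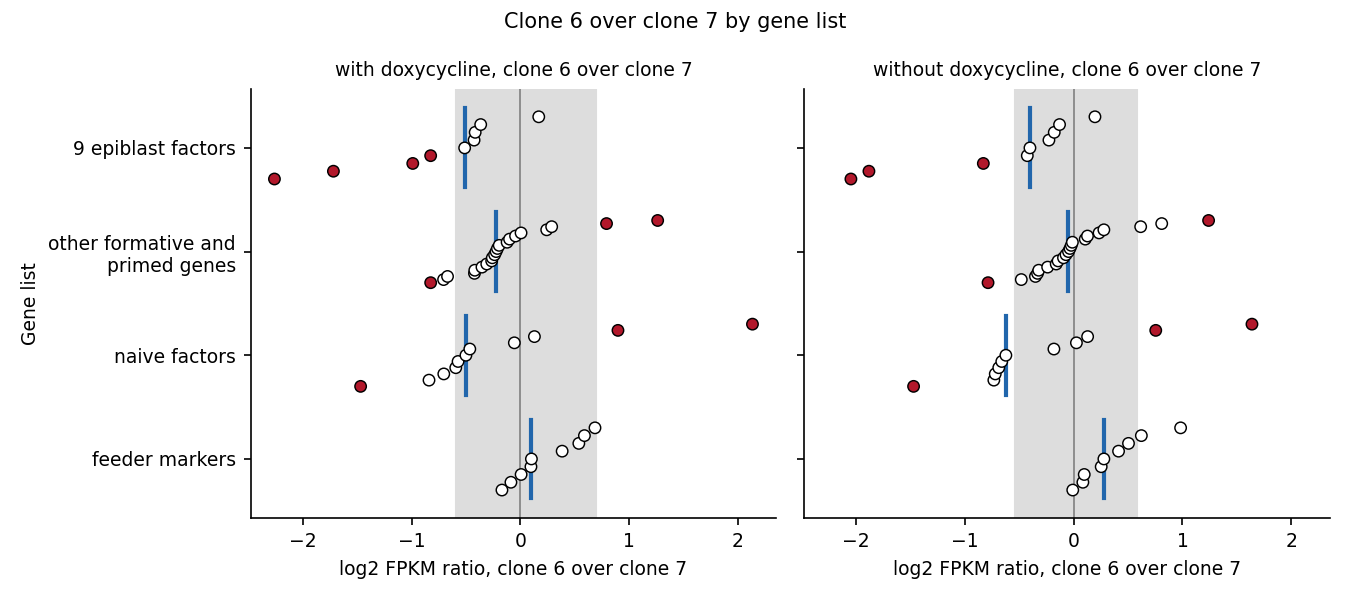
The log2 FPKM ratio of clone 6 over clone 7 for each tested gene of 4 lists (points, filled where q was under 0.05), with the list median (blue bar) and the range from the 5th to the 95th percentile of all tested genes (grey). The 9 factors have filled points only below 0, while the other formative and primed genes and the naive factors have filled points on both sides.

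**Figure D4:**
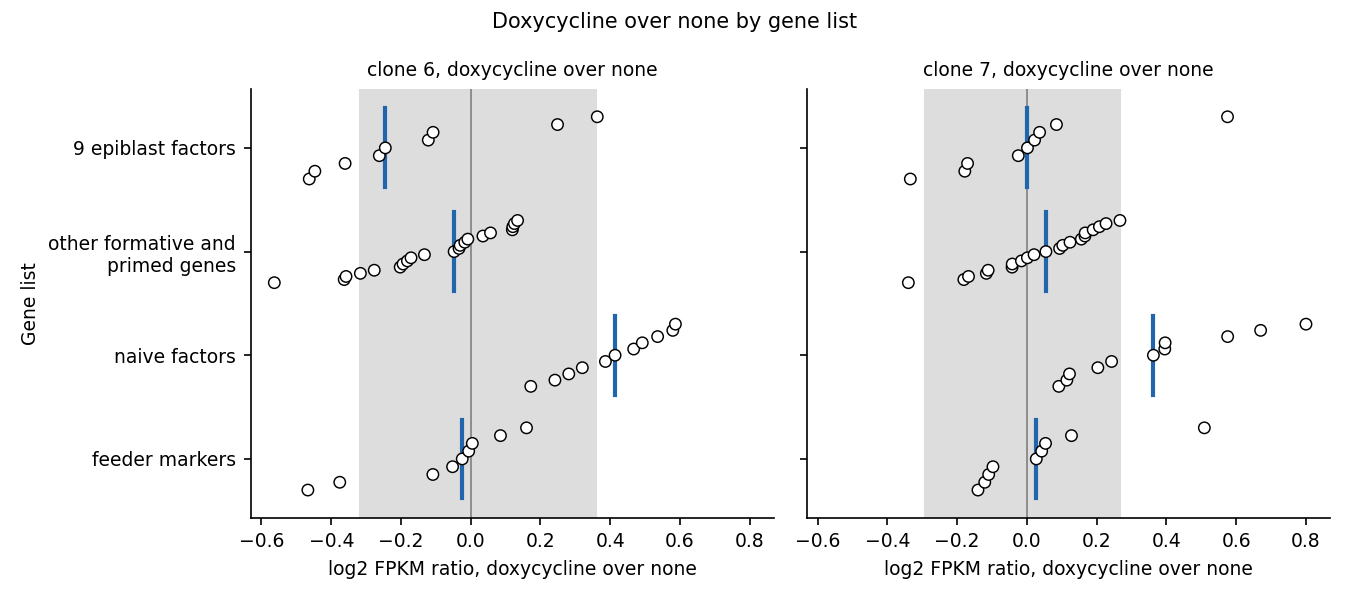
The log2 FPKM ratio of doxycycline over none in clone 6 (left) and clone 7 (right) for the same lists, drawn in the same way. No gene of the 4 lists is filled, the naive factors lie above 0 in both clones, and 7 of the 9 epiblast factors lie below 0 in clone 6, against 4 in clone 7.

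Most relatives of the 9 factors were weakly expressed. Of 20 paralogs, 13 were under 1 FPKM in all 4 groups, and 9 were tested between the clones with doxycycline and 8 without it. Otx1 was at 0.199 FPKM and 0.157 FPKM in clone 6 with and without doxycycline and at 0.088 FPKM and 0.163 FPKM in clone 7. Zic1 stayed between 0.138 FPKM and 0.238 FPKM in the 4 groups. Sox2, the core factor related to Sox3, was at 121 FPKM in clone 6 against 196 FPKM in clone 7 with doxycycline and at 105 FPKM against 168 FPKM without it. It was the 1 paralog called, lower in clone 6 in both media (q = 0.0429 and 0.0252 in the authors' deposited table), while Sox3 was called in neither. The median log2 ratio of the tested paralogs was -0.35 with doxycycline and -0.22 without it, and doxycycline gave 0 paralog calls in either clone, with 0 under 0.05 without adjustment in that Cuffdiff-type test. Sall4, the abundant Spalt factor of ES cells, was at 75.8 FPKM in clone 6 against 97.9 FPKM in clone 7 with doxycycline and at 87.4 FPKM against 87.0 FPKM without it.

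Tcf15 binds DNA with E-protein partners, and Id proteins block such partners. Of 7 such genes 1 was called with doxycycline in clone 6, namely Id2, at 22.8 FPKM with doxycycline against 39.8 FPKM without it (log2 ratio -0.81, q = 0.0462 in the authors' deposited table). That call is lost when p is adjusted within the comparison alone (adjusted p = 0.450 from the authors' deposited table), where 0 of the 13003 tested genes were called, against 14 by the deposited q and 140 at an unadjusted p under 0.05. Tcf15 itself was not called in that comparison. Between the clones none of the 7 was called in either medium in the Cuffdiff-type test. Under 0.05 before adjustment were 2 with doxycycline and 1 without it, against 7.9% and 6.59% of all tested genes. The medians of the 7 were -0.02 and 0.03 on the log2 scale. The E-protein gene Tcf3 was at 61.7 FPKM in clone 6 against 73.4 FPKM in clone 7 with doxycycline and at 69.4 FPKM against 71.6 FPKM without it. Of 7 regulators of the exit from the naive state, Jarid2, a cofactor of Polycomb complex PRC2, was called lower in clone 6, at 47.3 FPKM against 99.7 FPKM with doxycycline and at 50.3 FPKM against 81.1 FPKM without it. The other 6, among them the repressor Tcf7l1, were called in neither medium, and doxycycline gave 0 calls among the 7 in either clone in the Cuffdiff-type test, with 0 under 0.05 before adjustment.

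Markers of other cells that the dishes could hold were set beside the clone difference. The 10 feeder markers summed to 249 FPKM and 247 FPKM in clone 6 with and without doxycycline against 185 FPKM and 189.5 FPKM in clone 7. None of the 9 tested was called in the Cuffdiff-type test. Under 0.05 before adjustment were 3 with doxycycline and 2 without it, against 7.9% and 6.59% of all tested genes. The value was higher in clone 6 for 7 of the 9 with doxycycline and 8 without it, against 46.3% and 49.8%. The median log2 ratio of the feeder markers was 0.10 with doxycycline and 0.28 without it. Col1a1 was their most abundant member, at 140 FPKM and 132 FPKM in clone 6 against 86.8 FPKM and 92.8 FPKM in clone 7, while Lum was at 0.314 FPKM to 0.506 FPKM in the 4 groups. Neural progenitor markers summed to 60.6 FPKM and 68.9 FPKM in clone 6 with and without doxycycline against 35.5 FPKM and 38.5 FPKM in clone 7. Most of the gap in that sum was Olig2, at 25.8 FPKM and 30.5 FPKM in clone 6 against 0.0784 FPKM and 0.0854 FPKM in clone 7, which was not called (q = 0.634 and 0.368 in the authors' deposited table). Nes, the most abundant of these markers, was at 32.7 FPKM and 36.4 FPKM in clone 6 against 30.2 FPKM and 34.5 FPKM in clone 7, and was not called. The defining neural markers Sox1 and Pax6, both at low levels, stood the other way. Of the 5 tested neural markers, 3 had the lower value in clone 6 and 2 the higher one in each medium. Sox1 was at 0.169 FPKM and 0.156 FPKM in clone 6 against 0.870 FPKM and 0.600 FPKM in clone 7. Pax6 was at 0.991 FPKM in clone 6 against 3.28 FPKM in clone 7 with doxycycline, the 1 call in 5 tested neural markers, and at 0.916 FPKM against 2.30 FPKM without it.

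Trophoblast markers summed to 18.8 FPKM and 13.9 FPKM in clone 6 with and without doxycycline against 10.4 FPKM and 8.88 FPKM in clone 7. Extraembryonic endoderm markers summed to 6.86 FPKM and 7.66 FPKM in clone 6 against 7.18 FPKM and 7.11 FPKM in clone 7, with Sox17 at 0.142 FPKM or less in every group. Of these markers 0 were called between the clones in the Cuffdiff-type test. Under 0.05 before adjustment were 3 of 4 tested trophoblast markers with doxycycline and 2 of 4 without it. For the 3 tested endoderm markers these counts were 0 and 1. The shares of all tested genes were 7.9% and 6.59%. All 4 tested trophoblast markers had the higher value in clone 6 in both media, with median log2 ratios of 1.23 and 0.86. Of the 3 tested endoderm markers 1 was higher in clone 6 with doxycycline and 2 without it. Doxycycline gave 0 calls among all these marker lists in either clone. In clone 6, 1 of 4 tested trophoblast markers was under 0.05 before adjustment, against 1.08% of all tested genes. The part of any of these cells in the levels of the 9 factors was not tested.

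Genes whose levels followed the factors most closely over the 4 groups were found by the distance between log2(FPKM + 1) values, centred per gene, among 11583 other genes at 1 FPKM or more in every group. With 4 group values this is a description of shape, and several of the genes listed are far less abundant than the factor. The 1 added to FPKM narrows ratios at low levels, so the plain ratios of such genes can differ from those of the factor. The closest to Tcf15 were Mirg (distance 0.0873) and Meg3 (distance 0.199), noncoding RNAs of the imprinted Dlk1-Dio3 region on chromosome 12, against a median distance of 1.78 over all genes. Mirg was at 9.81 FPKM and 8.74 FPKM in clone 6 with and without doxycycline against 34.1 FPKM and 34.0 FPKM in clone 7. The closest gene to Gbx2 was Tcf15, at a distance of 0.404, and next came Mirg at 0.469, against a median of 2.04. Foxd3 was closest to 2410004A20Rik (0.0188) and Fmr1nb (0.0468), a gene of the X chromosome at 11.5 FPKM and 11.95 FPKM in clone 6 against 22.6 FPKM and 22.3 FPKM in clone 7. The levels of 2410004A20Rik were low, at 1.33 FPKM and 1.57 FPKM in clone 6 against 3.60 FPKM and 3.46 FPKM in clone 7. Its plain ratios between the clones were wider than those of Foxd3.

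The nearest genes to Pou3f1 were 1190003J15Rik (0.0425) and Txnip (0.0560), the gene of a thioredoxin-binding protein, at 28.1 FPKM and 37.7 FPKM in clone 6 against 47.6 FPKM and 50.7 FPKM in clone 7. Otx2 was nearest to Crebzf (0.0283) and A330069E16Rik (0.0319), Zic2 to 5730528L13Rik (0.0043) and Zfp2 (0.0215), and Zic5 to Dtx1 (0.0192) and Zswim5 (0.0238). Sox3 was nearest to A230070E04Rik (0.0350) and Thbs4 (0.0508). For Sall2 the nearest genes were the glycolytic enzyme gene Pgk1 (0.0352), at 648 FPKM and 859 FPKM in clone 6 against 825 FPKM and 953 FPKM in clone 7, and Prrt2 (0.0373). None of the factors other than Gbx2 had another of the 9 among its nearest 2 genes.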

How the data were processed

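RNA from 8 libraries (4 groups of 2; 75 bp single-end reads, per the labels) was measured. The submitters' processing notes list TopHat2 2.0.8, Cufflinks 2.1.1 and build mm10; roles, annotation, strand setting and normalization were not given in the sources used here. One table, laid out like Cuffdiff output, was used: the authors deposited group FPKM values, a test statistic (a score with no fixed range), p-values and q-values for 6 pairwise comparisons. Deposited q-values equal Benjamini-Hochberg adjustment of 78127 tests over all 6 comparisons (largest difference 5.21e-07). The smallest deposited p-value, 5e-05, is shared by 481 tests. The design text says that the experiment was repeated, and how separate the cultures were is not given, so p-values may in part measure technical spread.

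Ratios were computed from the deposited FPKM with no pseudocount, as clone 6 over clone 7 and doxycycline over none, opposite in sign to the deposited statistic. Standard errors are the log2 ratio over the deposited test statistic. They can differ from those implied by the p-value: over all tested genes in clone 6 the statistic was a median of 0.701 times the normal quantile of its p. The difference between responses used a normal test, Benjamini-Hochberg adjusted and tested on simulated data, without 4 genes whose deposited fold was not the ratio of the values within 0.01 on the log2 scale. Python 3.11.15, scipy 1.17.1 and pandas 2.3.3 were used.

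The factors and all gene lists (other formative and primed genes, naive factors, paralogs, Tcf15 partners and Id genes, exit regulators, and markers of ES cells, feeders, endoderm, neural progenitors and trophoblast) were chosen with earlier results of these data known. Beside the 9 factors, the text names the list genes that were called, some defining markers, some paralogs, overlapping genes and the 2 nearest genes in likeness. The most abundant gene was described for some lists only, such as Col1a1 for the feeder markers. Among those left out were Utf1 of the other formative and primed genes (774 FPKM to 999 FPKM) and Mbd3 of the exit regulators (160 FPKM to 173 FPKM). Neither was called in the clone or doxycycline comparisons. Other genes named for contrast, such as Fgf5, Sox17, Olig2 and Tcf3, were chosen after their values were seen.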

Additional observations from a re-analysis of the deposited data

How the results depend on the processing

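Adjusting p within each comparison alone, or a q threshold of 0.01, left the number of factors called at 4 with doxycycline and 3 without it between the clones, and at 0 in both doxycycline comparisons. The median log2 ratios of the 9 factors moved by at most 0.04 under a pseudocount of 1 or 0.1, equal group totals, centring on the median ratio, or a minimum mean of 5 FPKM. That minimum could change nothing, since the lowest mean of a factor was 17.2 FPKM, for Sall2. For single factors, another adjustment or q threshold leaves the ratio as it is, and a pseudocount cannot turn its sign. Only equal group totals and centring could therefore change a sign. Of 216 single-factor values under all the alternatives, 2 changed sign, both for Zic2 with doxycycline in clone 7, which was not called. Its log2 ratio of 0.0015 became -0.0061 with equal group totals and -0.016 with centring, and as Zic2 is the median there, so did the median of the 9. Each of these alternatives lowers all log2 ratios of that comparison by a fixed amount. In clone 7 the FPKM total was 721623 with doxycycline and 717813 without it. The log2 shifts removed by centring were 0.0153 and -0.0020. Standard errors from p, or a minimum mean of 1 FPKM, left 0 factors called for the difference between responses. With standard errors from p, 0 genes of any kind were called there, against 18 with those from the test statistic. Chosen after seeing the data, the same 2 alternatives were run on the calls of the other lists: of 17 calls 16 held with adjustment within each comparison, where Id2 was lost and 4 were gained (Dnmt3a, Foxp1, Fgf5 and Esrrb), and 10 held at 0.01. No paired analysis was possible because the table holds 1 value per gene and group, and for the same reason no library could be left out and depth limits cannot be given.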
